A study of Mus musculus with 6 samples.

Results

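Hyaluronan synthesis and binding is represented here by 8 genes of a deposited table of 24340, taken by their symbols: the synthase genes Has1, Has2 and Has3, the hyaluronidase genes Hyal1 and Hyal2, the receptor genes Cd44 and Hmmr, and Tnfaip6. All 8 had a row, and 7 reached the mean of 1 FPKM (sequenced fragments relative to transcript length and to the library's total) needed for testing, which left out Has3. The poly-A RNA was that of cultured primary microglia, brain-resident macrophages, from C57BL/6 mice under 3 days old. The vehicle group received DMSO for 1 h and then lipopolysaccharide (LPS, a bacterial membrane component) at 1 ug/ml for 5 h. The other group received C13, also named AG2P145D and described by the submitters as a MOK inhibitor, at 10 uM for 1 h and then the same LPS. There were 3 libraries per group, called biological replicates without a named culture or litter, so their spread may be partly technical. Every library had received LPS, so the effect of LPS itself cannot be read from these values. The genes were chosen by their names with the FPKM difference between C13 and vehicle already known, Has2 in particular for its lower value with C13. That difference is therefore given as a description, with no test.

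Hyaluronan is a long unbranched sugar polymer of the extracellular matrix. HAS enzymes in the plasma membrane make it from UDP-glucuronic acid and UDP-N-acetylglucosamine and push the growing chain out of the cell. Hyaluronidases cut it, and cells bind it through receptors such as CD44 and RHAMM. In brain it is part of the matrix around neurons and glia, and inflammatory stimuli are known to change both its synthesis and its breakdown.

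The RefSeq promoter table for GRCm38 (250 bases before to 50 after a RefSeq start of the gene) held 6 of the 8 genes, and Has2 and Has3 were not among them. A set of 5 motifs of factors active after LPS or in the antioxidant response were searched on both strands: AP-1 (TGANTCA), C/EBP (TTGCNNAA), the interferon-stimulated response element (GAAANNGAAA), the antioxidant response element (TGACNNNGC) and the NF-kappaB consensus. The promoters of Tnfaip6, Hyal2 and Has1 each held 1 site, in capitals below, and are shown for that reason. The 3 windows are chr2:52037863-52038162 on the plus strand for Tnfaip6, chr9:107568913-107569212 on the plus strand for Hyal2 and chr17:17855139-17855438 on the minus strand for Has1. The Hyal2 window lies inside the GENCODE span of the gene, which begins at 107567945. Its match is therefore upstream of the RefSeq start used, not of the first annotated start.
Tnfaip6: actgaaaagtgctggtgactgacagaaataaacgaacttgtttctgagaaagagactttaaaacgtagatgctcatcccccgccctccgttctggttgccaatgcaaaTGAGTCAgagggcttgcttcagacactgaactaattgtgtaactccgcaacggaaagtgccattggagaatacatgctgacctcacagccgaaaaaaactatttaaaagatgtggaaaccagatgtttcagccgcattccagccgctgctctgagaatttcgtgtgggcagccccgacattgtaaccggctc
Hyal2: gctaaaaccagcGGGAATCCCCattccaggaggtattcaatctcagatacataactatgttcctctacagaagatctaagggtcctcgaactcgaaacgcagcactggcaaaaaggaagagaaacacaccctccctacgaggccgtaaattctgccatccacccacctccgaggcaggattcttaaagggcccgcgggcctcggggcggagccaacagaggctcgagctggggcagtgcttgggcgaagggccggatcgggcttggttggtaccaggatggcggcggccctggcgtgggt
Has1: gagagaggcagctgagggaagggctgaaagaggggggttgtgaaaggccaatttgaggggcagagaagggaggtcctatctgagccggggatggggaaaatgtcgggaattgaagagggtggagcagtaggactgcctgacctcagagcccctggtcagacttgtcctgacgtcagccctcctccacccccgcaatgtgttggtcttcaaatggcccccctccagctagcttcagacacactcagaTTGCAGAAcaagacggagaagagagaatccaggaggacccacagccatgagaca

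The capitals mark an AP-1 match in Tnfaip6, an NF-kappaB match in Hyal2 and a C/EBP match in Has1, the last across the gene's RefSeq start. Of 32851 promoters in the table, 7.81% held the AP-1 letters, 4.51% the NF-kappaB consensus and 10.8% the C/EBP letters. The windows of Cd44, Hmmr and Hyal1 held none of the 5 motifs, and none of the 6 held the interferon element (3.44% of all promoters) or the antioxidant element (12.4%).

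Read totals are not in the table, and steps between low values put the depth at about 8.91 to 11.5 (in units of 1e6 fragments) per library. Vehicle replicate 2 stood apart: its correlation with the others, taken across genes, had a median of 0.969, where the remaining libraries had 0.984 to 0.989. Its values were higher than in the other vehicle libraries for short transcripts and lower for long ones. With genes split into 5 equal groups by transcript length, its median deviation was 0.39 in log2(FPKM + 1) for the shortest group and -0.43 for the longest. The difference of each hyaluronan gene but Has3 is given below with and without it.

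RNA of other cells was present in all 6 libraries, and hyaluronan genes are also used by fibroblasts and astrocytes. All 10 microglial markers were measured, with a summed level of 1255 to 1664 FPKM under vehicle and 1222 to 1301 FPKM under C13. Csf1r, the receptor microglia need to survive, had 57.9 to 69.3 FPKM over the libraries. P2ry12, a purine receptor of resting microglia, had 2.39, 2.05 and 3.18 FPKM under vehicle and 2.00, 1.84 and 1.30 FPKM under C13. Its groups did not overlap, the only such case of the 10, where the share over all genes tested was 16.6%. The 10 fibroblast and mural cell markers summed to 5348 to 6034 FPKM under vehicle and 5081 to 5473 FPKM under C13, with the collagen gene Col1a1 at 1773 to 2137 FPKM. Differences in this list went both ways, with 5 above 0 and 5 below. Pdgfra was higher with C13 without overlap (2.95 to 3.76 against 4.30 to 7.87 FPKM), and Acta2 lower (1327 to 1793 against 1125 to 1295 FPKM). Dcn and Lum were highest in C13 replicate 2, at 165 and 35.2 FPKM, against 79.6 to 104 and 15.2 to 19.6 FPKM elsewhere. The 8 astrocyte markers summed to 47.6 to 57.96 FPKM under vehicle and to 63.7, 115 and 72.04 FPKM in C13 replicates 1, 2 and 3. Gfap, an astrocyte filament gene, had 2.74, 5.18 and 4.74 FPKM under vehicle and 5.80, 35.6 and 8.79 FPKM under C13, without overlap. Of 7 astrocyte markers tested, 5 were higher with C13 without overlap of the groups, where the share over all genes tested was 6.83%. Slc1a2, 1 of the 5, had means of 0.999 FPKM for vehicle and 1.61 FPKM for C13. It thus reached the mean of 1 FPKM needed for testing only through the C13 group. All 5 were highest in C13 replicate 2, so they are not separate observations, and nothing more is read from their count. With all 6 libraries 0 of the 7 passed the limma test, which called 0% of all genes. Oligodendrocyte lineage markers summed to at most 2.27 FPKM and endothelial markers to at most 7.27 FPKM. The 4 mesothelial markers, which are not drawn in the figure, summed to 11.0 to 25.2 FPKM under vehicle and 10.95 to 14.4 FPKM under C13. Neuron markers summed to at most 14.8 FPKM, nearly all of it Tubb3. In such mixed RNA the cell type that carried each hyaluronan transcript cannot be told, and fewer cells of a type cannot be told apart from less RNA per cell.

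**Figure D1:**
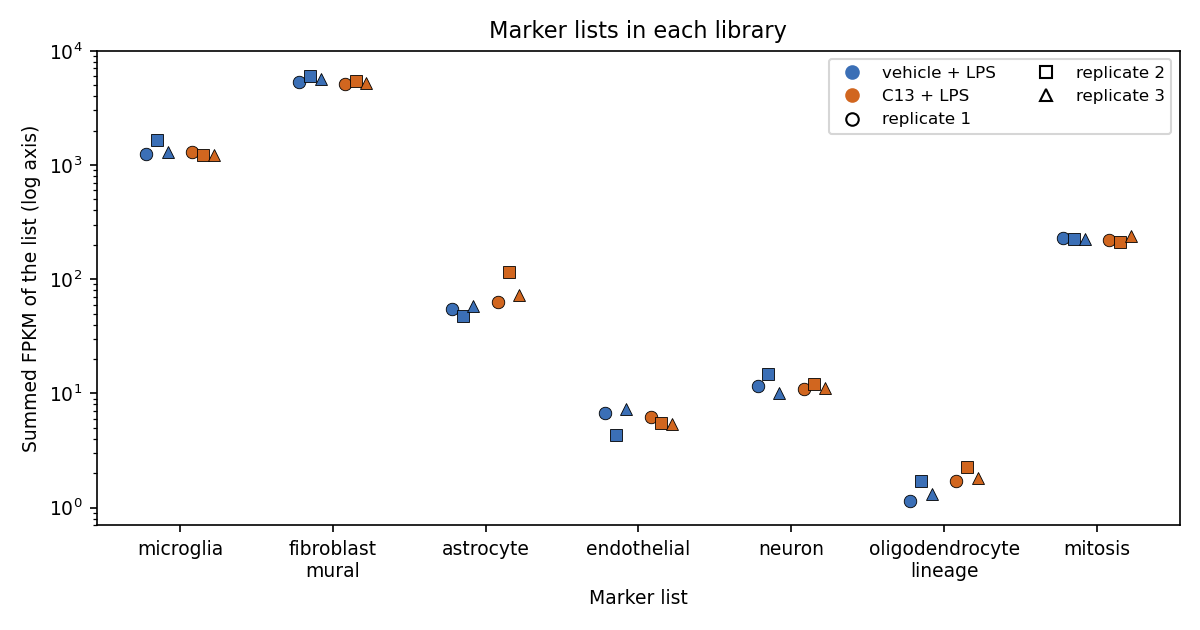
Summed FPKM (log axis) of lists of marker genes in each library, with blue for vehicle + LPS, orange for C13 + LPS and a symbol for each replicate. Fibroblast and mural markers sum to 5081 to 6034 FPKM, and the astrocyte list is highest in C13 replicate 2 at 115 FPKM.

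Has2 made up nearly all of the synthase RNA, between 90.9% and 94.7% of the summed FPKM of the 3 synthase genes in each library. It encodes the synthase known in mouse as the main source of hyaluronan during development. The gene lies on chromosome 15 (56665627 to 56694539, minus strand, GRCm38) and has 1 annotated transcript of 4237 nt. With vehicle it had 63.8, 41.5 and 64.3 FPKM in replicates 1, 2 and 3. With C13 it had 40.2, 35.8 and 32.2 FPKM. All C13 libraries lay below all vehicle libraries, but vehicle replicate 2 was only slightly above C13 replicate 1. The means were 56.5 ± 12.99 FPKM for vehicle and 36.1 ± 3.996 FPKM for C13 (SD, n = 3 each), a ratio of 0.638. On the log2(FPKM + 1) scale C13 minus vehicle was -0.61 (SE 0.22). Without vehicle replicate 2 the vehicle mean was 64.0 ± 0.364 FPKM (SD, n = 2), the ratio 0.563 and the difference -0.82 (SE 0.09). With each library's trend on transcript length and GC content removed it was -0.68 (SE 0.13), again with groups that did not overlap. The groups overlapped when values were rescaled to TPM (-0.48, SE 0.30) or quantile normalized (-0.55, SE 0.25). About 1519 to 2917 fragments stood behind each value of Has2.

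In vehicle replicate 2 Has2 deviated further down than most genes of like transcript length. Its Has2 level was 0.649 of the mean of the other vehicle libraries, a deviation of -0.61 in log2(FPKM + 1). The 300 tested genes nearest in transcript length had a median deviation of -0.10, with quartiles of -0.36 and 0.12.

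**Figure D2:**
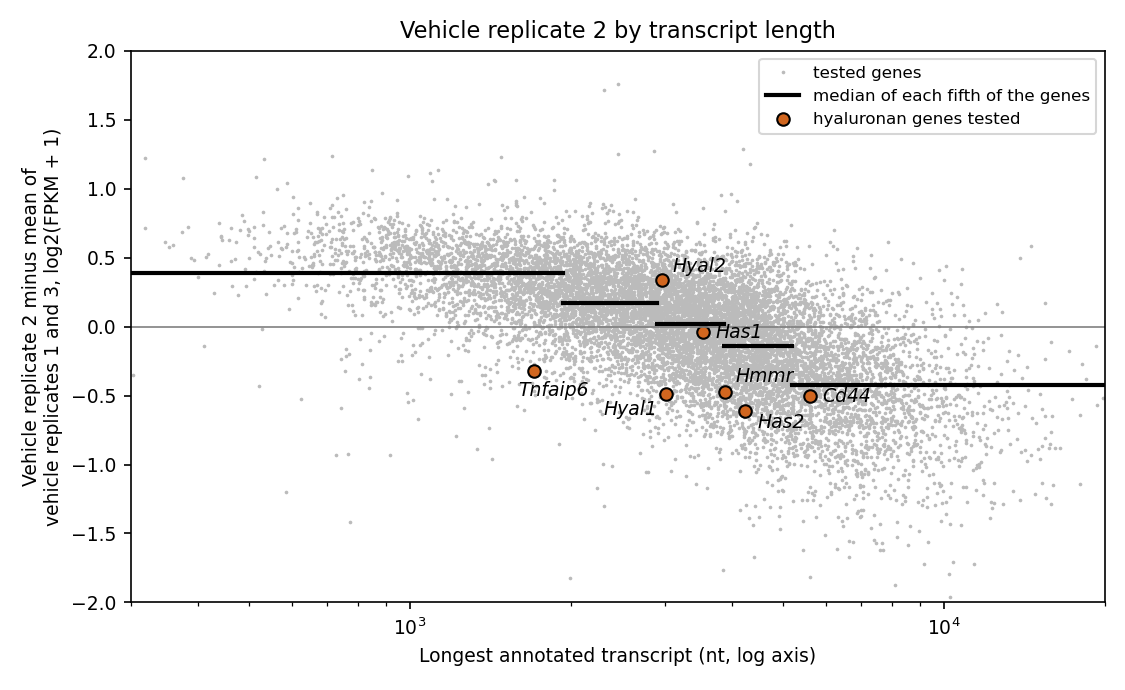
Deviation of vehicle replicate 2 from the mean of vehicle replicates 1 and 3 in log2(FPKM + 1) against the length of the longest annotated transcript (nt, log axis), for 11349 tested genes (grey), of which 63 lie outside the axes. Black bars are the medians of 5 equal groups of genes by length, from 0.39 to -0.43, and the 7 hyaluronan genes tested are in orange, with Tnfaip6, Hyal1, Hmmr and Has2 below the bar at their length and Hyal2 above it.

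Ratios within a library do not depend on the library total, but they keep a trend on transcript length. Those below reuse the Has2 values that chose the gene, so they are description only. Has2 over Cd44 was 0.175, 0.167 and 0.187 in vehicle replicates 1, 2 and 3 and 0.132, 0.138 and 0.113 in the C13 libraries. The groups did not overlap, and vehicle replicate 2 lay near the other vehicle libraries. In that library, however, genes of Cd44's length had a median deviation of -0.34 and genes of Has2's length -0.10. Such a gap raises Has2 over Cd44 there, and the ratio was not corrected for it. Has2 was also set against Cemip, which encodes a hyaluronan-binding protein that drives hyaluronan breakdown, a choice made after the values were seen. That ratio was 0.595, 0.586 and 0.637 with vehicle and 0.305, 0.334 and 0.259 with C13, so every C13 library had less Has2 per Cemip than any vehicle library. Has2 over Hyal2 was 5.07, 2.59 and 5.20 with vehicle and 2.56, 2.20 and 2.08 with C13. Here too the groups did not overlap, but vehicle replicate 2, which was low in Cd44 and Cemip and high in Hyal2, lay beside C13 replicate 1. Has2 over Has1 did overlap, with 18.2, 11.9 and 17.1 with vehicle and 10.8, 10.2 and 15.6 with C13.

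**Figure D3:**
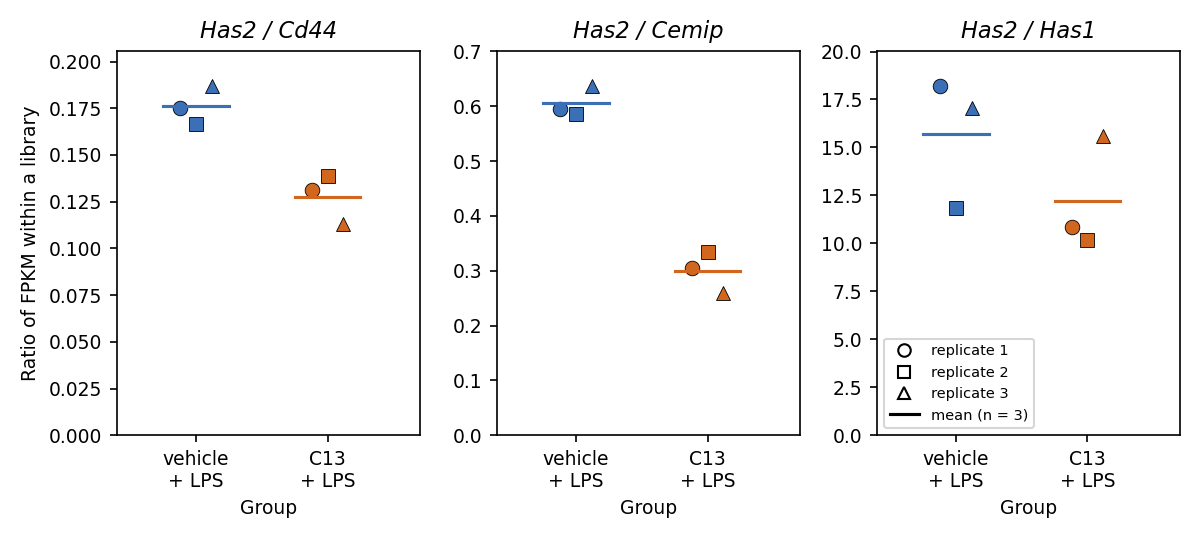
Ratio of Has2 to Cd44, Cemip and Has1 in FPKM within each library, by group, with a symbol for each replicate and a line for the mean (n = 3). The groups are apart for Cd44 (0.167 to 0.187 against 0.113 to 0.138) and Cemip (0.586 to 0.637 against 0.259 to 0.334) and overlap for Has1.

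An antisense transcript gene, Has2os, shares the locus of Has2 in the table. It had 1.30, 0.775 and 1.87 FPKM under vehicle and 1.53, 1.49 and 1.51 FPKM under C13. Its values with C13 lay within the vehicle range, but only about 8.45 to 20.3 fragments stood behind each. Whether strand was used in counting is not given in the sources used here, so reads where the pair overlap cannot be told apart. Has2 exceeded Has2os by 21.3 to 53.6 times in each library.

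Has1, the synthase gene on chromosome 17 (17843323 to 17855205, minus strand), was low. It had 3.501, 3.502 and 3.765 FPKM under vehicle and 3.70, 3.53 and 2.06 FPKM under C13. C13 replicate 3 alone was below the rest and the groups overlapped. The means were 3.59 ± 0.152 and 3.10 ± 0.902 FPKM (SD, n = 3 each), a difference of -0.19 (SE 0.20) in log2(FPKM + 1). It was -0.20 (SE 0.20) without vehicle replicate 2 and 0.009 without C13 replicate 3.

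Has3, on chromosome 8 (106870242 to 106884566, plus strand), was close to undetected, with 0.0149 to 0.143 FPKM. Scaled by relative depth, its 6 values were within 0.029 of whole multiples of the lowest. Read as whole fragments, they were 5, 1 and 3 with vehicle and 10, 5 and 2 with C13 in replicates 1, 2 and 3. The exact Poisson 95% intervals run from 0.0253 to 5.57 fragments for the lowest and from 4.80 to 18.4 for the highest, and cover counting error only. The groups overlapped, and with so few fragments no difference between them was tested.

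**Figure D4:**
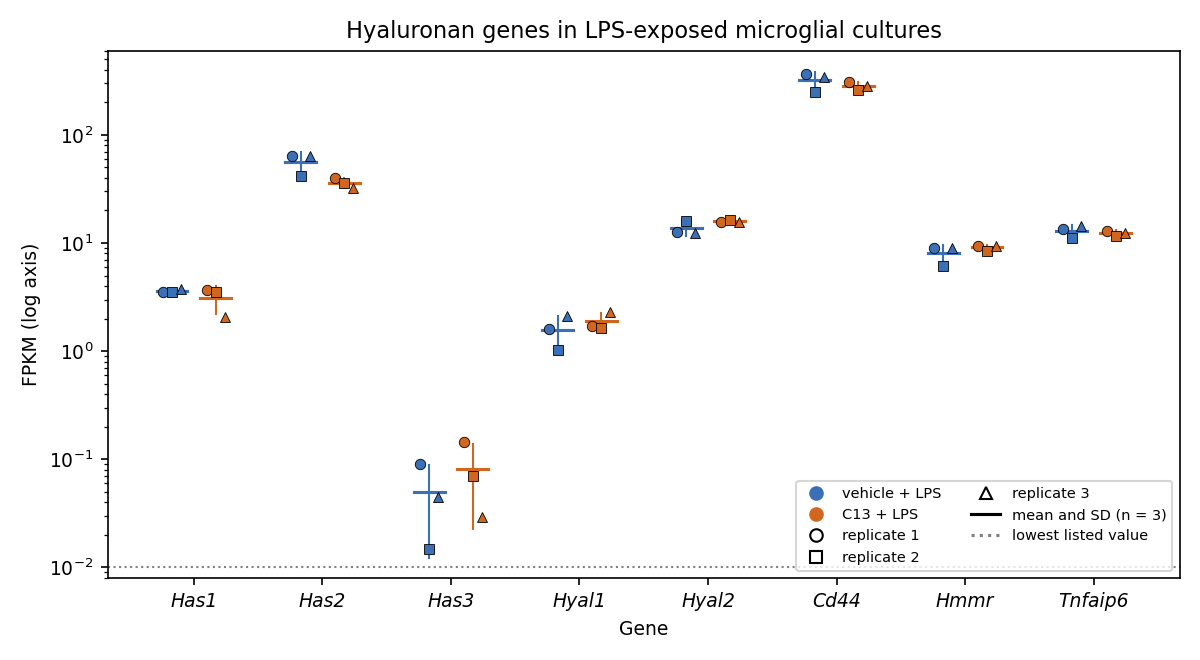
FPKM (log axis) of the 8 genes in each library, with blue for vehicle + LPS and orange for C13 + LPS, a symbol for each replicate, and mean and SD (n = 3). Has2 ranges from 32.2 to 64.3 FPKM with all C13 points below the vehicle points, while Has3 stays at or below 0.143 FPKM.

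The hyaluronidase genes Hyal1 and Hyal2 lie next to each other on the plus strand of chromosome 9 (107576927 to 107581710 and 107567945 to 107572779). HYAL2 sits on the cell surface and cuts long chains into fragments, which HYAL1 is known to break down further in lysosomes. Hyal2 had 12.6, 16.0 and 12.4 FPKM under vehicle and 15.7, 16.3 and 15.5 FPKM under C13. Vehicle replicate 2 lay among the C13 libraries, so the groups overlapped, and the other vehicle libraries lay below all of them. The difference in log2(FPKM + 1) was 0.21 (SE 0.11) with all libraries and 0.32 (SE 0.02) without vehicle replicate 2. With the length and GC trend removed it was 0.26 (SE 0.06), and the groups then did not overlap.

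Hyal1 had 1.6005, 1.02 and 2.11 FPKM under vehicle and 1.71, 1.63 and 2.31 FPKM under C13. The groups overlapped, and vehicle replicate 2 was the lowest library. About 33.1 to 77.5 fragments stood behind these values. The difference was 0.18 (SE 0.21), and 0.01 (SE 0.16) without vehicle replicate 2. Hyal2 exceeded Hyal1 in every library, by 5.87 to 15.7 times in FPKM.

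Cd44, the gene of the principal hyaluronan receptor of leukocytes (chromosome 2, 102811141 to 102901665, minus strand), was the most abundant of the 8 genes. It had 364, 249 and 344 FPKM under vehicle and 305, 259 and 285 FPKM under C13. Vehicle replicate 2 was the lowest of all libraries and the groups overlapped, whereas vehicle replicates 1 and 3 lay above every C13 library. Its longest transcript has 5614 nt, and its deviation of -0.50 in vehicle replicate 2 was within the quartiles of genes of like length (-0.54 and -0.08). The difference was -0.16 (SE 0.18) with all libraries, -0.32 (SE 0.08) without vehicle replicate 2 and -0.25 (SE 0.06) with the trend removed. With quantile normalization it was 0.02. Cd44 has 9 annotated transcripts, and the table gives a single value for them, so the variant forms of the receptor are not separated.

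Hmmr encodes RHAMM, which binds hyaluronan at the cell surface and is also a protein of the mitotic spindle (chromosome 11, 40701395 to 40733422, minus strand). It had 9.02, 6.17 and 8.95 FPKM under vehicle and 9.37, 8.42 and 9.48 FPKM under C13. Apart from vehicle replicate 2, which was the lowest, all libraries lay close together and the groups overlapped. The difference was 0.17 (SE 0.17), and 0.01 (SE 0.05) without vehicle replicate 2. The 13 mitosis genes set beside it summed to 224 to 230 FPKM under vehicle and 214 to 237 FPKM under C13. None of the 13 passed the limma test, which called 0% of all genes with all 6 libraries, and 0 had an unadjusted p under 0.05.

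Tnfaip6 encodes TSG-6, a secreted protein that binds hyaluronan and transfers heavy chains of inter-alpha-inhibitor onto it (chromosome 2, 52038009 to 52056686, plus strand). It had 13.6, 11.0 and 14.5 FPKM under vehicle and 13.03, 11.7 and 12.5 FPKM under C13. The groups overlapped through vehicle replicate 2. The difference was -0.06 (SE 0.12), and -0.17 (SE 0.06) without vehicle replicate 2. With rescaling to TPM it was 0.07, and -0.06 once the median shift of all genes under TPM, 0.13, was taken off. Its transcript of 1710 nt is short, and genes of like length were higher in vehicle replicate 2 by a median of 0.31, while Tnfaip6 deviated by -0.32.

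By mean FPKM, which is scaled to transcript length, the order was Cd44 (301), Has2 (46.3), Hyal2 (14.7), Tnfaip6 (12.7), Hmmr (8.57), Has1 (3.34), Hyal1 (1.73) and Has3 (0.0653). Neighbours in that order were apart in every library, except Hyal2 and Tnfaip6, where 4 of 6 libraries kept the order, and Has1 and Hyal1, where 5 of 6 did. The ranges of these 2 pairs overlapped.

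With all 6 libraries the groups did not overlap in 1 of the 7 genes tested, Has2, which was lower with C13, and overlapped in the other 6. Over all 11412 genes tested they did not overlap in 16.6%, with 6.83% higher and 9.78% lower with C13. Without vehicle replicate 2 they did not overlap in 4 of 7, with Has2, Cd44 and Tnfaip6 lower and Hyal2 higher, where the share over all genes was 35.7% (15.3% higher and 20.5% lower). The median difference of the 7 was -0.06 with all libraries and -0.17 without vehicle replicate 2, and over all genes it was -0.0003 and -0.005. The limma test called 0% of all genes with the 6 libraries (an unadjusted p under 0.05 was reached by 2.57% higher and 4.77% lower genes). Without vehicle replicate 2 it called 1.48%, of which 0.412% were higher and 1.07% lower (without adjustment, p was under 0.05 in 6.23% on the positive and 10.6% on the negative side). Since this contrast chose the 8 genes, their own limma results are not given and nothing is read from the counts of overlap.

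**Figure D5:**
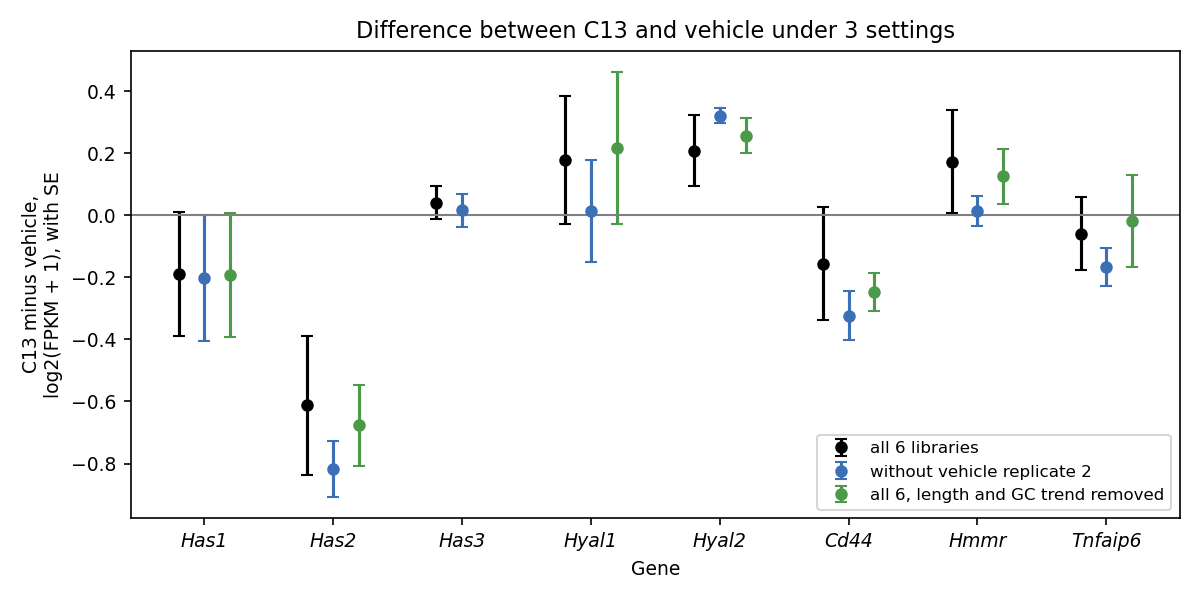
C13 minus vehicle in log2(FPKM + 1), with SE, for the 8 genes with all 6 libraries (black), without vehicle replicate 2 (blue) and with the length and GC trend removed (green, not computed for Has3). Has2 lies between -0.82 and -0.61 in all 3 settings, and Hyal2 between 0.21 and 0.32.

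The other genes of the pathway were taken from 4 lists written from general knowledge, with earlier results of these data known. Of 57 genes 56 had a row and 34 were tested. With all 6 libraries 0 of the 34 rose and 0 fell (limma, Benjamini-Hochberg over all genes tested), and 2 had an unadjusted p under 0.05. Without vehicle replicate 2 the counts past the threshold were again 0, and 6 had an unadjusted p under 0.05. Both shares at an unadjusted p were near those over all genes. The test called 0% of all genes with the 6 libraries and 1.48% without vehicle replicate 2. Nothing is therefore read from the counts of 0, here or in the single lists below. Their median difference was -0.01, and -0.10 without vehicle replicate 2.

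Among genes that supply the sugar substrates 0 of 8 passed, where the share over all genes was 0% with the 6 libraries. Ugdh, which makes UDP-glucuronic acid, had 93.96 ± 8.84 FPKM for vehicle and 89.2 ± 0.852 FPKM for C13 (SD, n = 3 each). Vehicle replicate 2 was its lowest library, and without it the Ugdh groups did not overlap, with a difference of -0.15 in log2(FPKM + 1) (limma adjusted p = 0.142). Uap1 and Gnpnat1, which act on the route to UDP-N-acetylglucosamine, had 24.8 ± 1.36 and 22.5 ± 2.30 FPKM for vehicle and 24.8 ± 2.09 and 21.8 ± 0.547 FPKM for C13. Ugp2, which makes UDP-glucose, had 23.2 ± 1.60 and 22.8 ± 1.58 FPKM. Gfpt2 and Gfpt1, which both encode an enzyme that opens the hexosamine route, are named after their values were seen. Gfpt2 had 17.8 ± 0.468 FPKM for vehicle and 15.3 ± 1.65 FPKM for C13, with groups that did not overlap and a difference of -0.21 (limma adjusted p = 0.731). Gfpt1 had 14.8 ± 4.56 and 15.9 ± 1.09 FPKM, with groups that overlapped. Its difference was 0.14 (limma adjusted p = 0.870), and -0.12 without vehicle replicate 2.

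Among genes of breakdown 6 of 12 were tested and 0 passed. The testis hyaluronidase genes Spam1 and Hyal5, with Hyal4 and Hyal6, stood in every library at 0.01 FPKM, the floor of the table. Cemip was the highest of the genes that act on long chains, with 107, 70.9 and 101 FPKM under vehicle and 131, 107 and 124 FPKM under C13. Vehicle replicate 1 and C13 replicate 2 had equal levels to 3 digits, so the groups overlapped. The difference was 0.39 (SE 0.17, limma adjusted p = 0.677), and 0.21 without vehicle replicate 2 (adjusted p = 0.280). The lysosomal genes Hexa and Gusb, whose enzymes remove single sugars, had 208 and 69.6 FPKM on average over the 6 libraries, with limma adjusted p-values of 0.833 and 0.8235.

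Of 25 other genes of hyaluronan binding and matrix, 10 were tested and 0 passed. The 4 with the highest levels were Ptx3, Tlr2, C1qbp and Stab1. Ptx3 encodes a pentraxin that cross-links the heavy chains placed by TSG-6, and had 1835 ± 10.01 FPKM for vehicle and 1678 ± 51.8 FPKM for C13, a difference of -0.13 (SE 0.10, limma adjusted p = 0.821). Its groups did not overlap. The innate receptor gene Tlr2 had 227 ± 11.2 and 198 ± 18.4 FPKM (adjusted p = 0.738), again without overlap. C1qbp, which encodes a hyaluronan-binding protein also found in mitochondria, had 74.6 ± 8.33 and 69.4 ± 3.07 FPKM, and the scavenger receptor gene Stab1 had 42.01 ± 2.675 and 43.9 ± 6.805 FPKM. The inter-alpha-inhibitor genes were low, with Itih2 at 2.98 to 4.52 FPKM and the bikunin gene Ambp at 0.01 to 0.398 FPKM.

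Layn encodes layilin, a membrane receptor for hyaluronan, and is named because it had the smallest p of the pathway lists, a choice made after its values were seen. It had 9.48, 8.37 and 10.4 FPKM under vehicle and 12.4, 13.2 and 15.1 FPKM under C13. All C13 libraries lay above all vehicle libraries. The difference was 0.48 (SE 0.12, limma adjusted p = 0.390) with all libraries, and 0.41 (adjusted p = 0.0950) without vehicle replicate 2, so it did not pass in either.

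The lecticans link hyaluronan to other matrix proteins, and are named after their values were seen. Bcan and Ncan were low and were highest in C13 replicate 2, the library with the highest astrocyte markers. Dcn, Lum, Pdgfra and Col3a1 of the fibroblast list were also highest there, though Col1a1 and the sum of that list were not. Bcan had 1.12 FPKM in that library and 0.110 to 0.374 FPKM in the other 5. Ncan had 1.61 FPKM there and 0.570 to 0.633 FPKM elsewhere. The part of RNA from astrocytes or other cells in these values was not tested. Acan had 1.16 FPKM in that library, its lowest, and 1.36 to 1.80 FPKM elsewhere. Vcan, the versican gene, had 37.7, 22.0 and 39.1 FPKM under vehicle and 38.9, 29.0 and 35.3 FPKM under C13, with vehicle replicate 2 again the lowest.

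Among 12 genes that act on or with CD44, 10 were tested and 0 passed. Spp1, the gene of the ligand osteopontin, had 2765 ± 108 FPKM for vehicle and 2699.6 ± 65.9 FPKM for C13. Msn, which encodes the moesin that ties CD44 to actin, had 334 ± 92.0 and 343 ± 17.2 FPKM, with 228 FPKM in vehicle replicate 2. Its difference was 0.08 with all libraries and -0.17 without that library (limma adjusted p = 0.179), where its groups did not overlap. Over the 10 genes the difference was below 0 in 5 with all libraries and in 9 without vehicle replicate 2. The median difference over all genes tested was -0.0003 and -0.005 in these settings. Vehicle replicate 2 was low for long transcripts, and the 10 were not compared with genes of like length, so nothing is read from this count. Mmp14, whose protease sheds CD44, had 254 ± 3.41 and 246 ± 12.7 FPKM. Srgn, the proteoglycan gene serglycin, had 224 ± 14.0 and 198 ± 11.8 FPKM, with groups that did not overlap (adjusted p = 0.742).

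Has2, Cd44 and Hmmr were set beside the genes whose pattern over the 6 libraries was nearest, measured as the root mean square difference of log2(FPKM + 1) after centring each gene. For Has2 these were Chst11, a chondroitin sulfotransferase gene, Cmpk2, a nucleotide kinase gene, and Lipg, a lipase gene. Their differences from Has2 were 0.0979, 0.0984 and 0.128, where the median over all genes was 0.410 (0.247 for Cd44 and 0.235 for Hmmr). The 3 nearest of all genes lie below such a median by selection, so the distances are description only. Chst11 had 71.6, 46.4 and 74.8 FPKM under vehicle and 50.6, 47.6 and 42.0 FPKM under C13. Like Has2, it was low in vehicle replicate 2, but there it lay within the C13 range. For Cd44 the nearest were Amotl2, Cggbp1 and Hmga2 at 0.0229, 0.0291 and 0.0335. For Hmmr they were Usp40, Sema3e and Cyld at 0.0124, 0.0167 and 0.0213, and none of the 13 mitosis genes was among them. Vehicle replicate 2 was the lowest library in Cd44, Hmmr and these neighbours, except Hmga2, where C13 replicate 2 was slightly lower.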

How the data were processed

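The authors deposited a single table of FPKM, a value for each gene in each library, made with TopHat2 2.1.0 and Cufflinks on mm10, per the submitters' processing notes. The sources used here give neither annotation nor strand setting. A stranded kit was used for the libraries, per the labels' protocols. Columns were matched to samples by description and groups taken from titles. Because FPKM is scaled to length and library total, a length trend in a library moves its values by transcript length.

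Values were transformed to log2(FPKM + 1), a scale that understates differences of low genes. The 11412 genes whose mean reached 1 FPKM entered a limma fit (limma 3.58.1, R 4.3.3; intensity trend, two-sided), adjusted by Benjamini-Hochberg at 0.05. The fit was tried on simulated data with noise drawn independently for each gene and no trend on transcript length. That trial therefore does not cover the deviation of vehicle replicate 2. Member differences are group means with SE from the 2 group variances. Transcript lengths and gene positions are from GENCODE M21 (GRCm38, the same assembly as mm10), found for 99.4% of tested genes. Depth was read from steps between low FPKM values. Of the genes tested 2524 share a locus with another row.

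Members and lists were chosen with earlier results of these data known. Text names the 8 members, the 4 most abundant genes of each pathway list and those that passed, Has2os, and 3 nearest patterns each for Has2, Cd44 and Hmmr; 1 gene that this rule names is not reported here, and others are named as chosen after their values were seen or for a role. Alternatives were each library left out, pseudocounts of 0.1 and 5, no filter or a mean of 5 FPKM, TPM, quantile normalization and a replicate block. Removing a trend on length and GC content (loess), and leaving out vehicle replicate 2 with C13 replicate 2, were added after seeing the data.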

Additional observations from a re-analysis of the deposited data

How the results depend on the processing

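The counts of genes past the threshold depended on the setting. Over all genes tested, 0 were higher and 0 lower with the 6 libraries, and leaving out each library in turn gave 0 to 47 higher and 0 to 122 lower, the highest counts without vehicle replicate 2. Without a filter there were 11 higher and 1 lower, with TPM 2 higher, with quantile normalization 7 higher, with the length and GC trend removed 16 higher and 18 lower, and without vehicle replicate 2 and C13 replicate 2 together 16 higher and 2 lower. The cause was not tested. The other pathway genes had 0 past the threshold in every setting run. The Has2 difference ran from -0.82 to -0.48 over the alternatives. Its sign could not change when libraries were left out or the pseudocount was changed, since every C13 value lay below every vehicle value. The Has2 groups overlapped with TPM (-0.48, or -0.61 relative to all genes) and with quantile normalization (-0.55). The differences of Hyal1, Hyal2 and Hmmr were above 0 in all settings that were run. The Has3 difference was 0.25 with a pseudocount of 0.1 against 0.04 with 1, and -0.0007 without C13 replicate 1. Tnfaip6 was 0.02 without vehicle replicate 3. A fit with the replicate number as a block called 0 genes higher and 0 lower; in this balanced design it cannot change a difference of means, which was -0.61 for Has2. Deviations of same-numbered libraries correlated by 0.0886, 0.129 and 0.0978 across genes, and each library correlated best with its own number. Differently numbered libraries gave -0.105 to 0.0267. These values neither show nor exclude pairs, and no pairing is stated, so the main fit used none. The submitters' library names carry other numbers, shared by vehicle replicate 1 with C13 replicate 2 (r = -0.101) and by vehicle replicate 3 with C13 replicate 3 (r = 0.0978), and no fit used these. Has1, Hyal1, Has3 and Has2os rest on few fragments, which limits their precision.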
